A study of Mus musculus with 20 samples.

Results

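The genes described here are the protein-coding histone genes. They were taken from each expression table by name, as protein-coding genes whose symbol begins, ignoring case, with HIST1H to HIST4H, H1F, H2AF, H2BF or H3F. The rule found 90 of 60607 human genes in the table of the humanized mouse livers and 83 of 55335 mouse genes in the table of the WT mouse livers. Of the human genes, 71 belong to the HIST clusters and are called replication-dependent here, and 19 are called replacement histones, with 67 and 16 in mouse. These names were given by symbol alone.

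The experiment asked how livers of human and of mouse cells respond to the loss of HuR, an RNA-binding protein encoded by ELAVL1 that attaches to U-rich and AU-rich stretches of mRNAs and acts on their stability and translation. Total RNA of 20 livers was sequenced, from 4 humanized mice with HuR knockdown (HuR KD) and 4 given LacZ control adenovirus, and from 6 WT mice in each of these groups. All mice received 2000000000 pfu of adenovirus by the intravenous route, and livers were taken on day 7 after a 4 h fast. The knockdown viruses carried an shRNA (short hairpin RNA) against the HuR of the species studied. WT mice were male C57BL/6 bought at 8 weeks of age. The humanized animals were TK-NOG mice, which are strongly immunodeficient and express a herpes thymidine kinase from a mouse albumin promoter, so that ganciclovir (25 mg/kg, given at 8 to 9 weeks) removes cells of the host liver that carry it. They received 1000000 human primary hepatocytes 1 week later and were used if serum human albumin, measured 8 to 12 weeks after the transplant, exceeded 0.5 mg/ml. The number of hepatocyte donors is not given in the sources used here, and the host's own blood, endothelial and stromal cells remain mouse cells. The table of these livers lists human genes alone, and its values in TPM (a share of all transcripts of the table after adjustment for gene length, scaled to a total of 1000000) were normalized apart from those of the WT mouse livers, so that levels and changes were tested within each table and no difference between the species was tested.

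Histones are the proteins around which DNA is wound: H2A, H2B, H3 and H4 form the core particle, and H1 binds the linker DNA between particles. Most genes of the HIST clusters are transcribed in S phase to package new DNA, and their mRNAs end in a conserved stem-loop in place of a poly(A) tail, bound by the stem-loop binding protein SLBP. Replacement histones are made throughout the cell cycle from ordinary polyadenylated mRNAs and are the main new histones of cells that do not divide, as most hepatocytes of an adult liver do not. Libraries from total RNA, as here, do not depend on a poly(A) tail.

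The stem-loop was searched for in the mouse genes, by the 16-letter histone stem-loop consensus on the sense strand of the annotated 3′ UTRs (GENCODE M21, build GRCm38), because it is the feature that sets the replication-dependent mRNAs apart. All 83 mouse genes had an entry there. The consensus was found in 44 of 67 replication-dependent genes, or in 44 of the 52 with an annotated UTR of at least 30 bases, and in 2 of 16 replacement genes. Over all protein-coding genes with a 3′ UTR the share was 0.323% (68 of 21045). It began 22 to 59 bases after the stop codon (median 32.5). Examples are printed with 5 bases on each side and the 16 letters of the match in capitals, to show the form held by most genes with a match, a variant of it, the commonest form of the H4 genes, and the form in a replacement gene. They lie on the GRCm38 positions chr13:23739507-23739532 (plus strand) for Hist1h1c, chr13:21722501-21722526 (plus) for Hist1h2bm, chr3:96220413-96220438 (minus) for Hist2h2ac, chr13:23531453-23531478 (plus) for Hist1h4h and chr9:44335235-44335260 (plus) for H2afx.
Hist1h1c: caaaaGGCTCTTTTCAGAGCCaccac
Hist1h2bm: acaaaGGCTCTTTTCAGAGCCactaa
Hist2h2ac: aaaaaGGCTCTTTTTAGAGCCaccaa
Hist1h4h: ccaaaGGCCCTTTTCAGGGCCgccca
H2afx: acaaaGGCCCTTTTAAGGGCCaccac

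The form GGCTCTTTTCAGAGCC was held by 27 genes, of which 0 were H4 genes, and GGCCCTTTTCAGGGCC by 7 genes, all of them H4 genes. H2afx, whose protein marks broken DNA when phosphorylated and which was singled out after these values were seen, was the only replacement gene with a mean of at least 1 TPM to hold the letters. The replacement genes with that mean had longer 3′ UTRs, with a median of 1170 bases against 94 for the replication-dependent genes. Some of the latter have little or no annotated UTR, and for the 40 with at least 30 bases the median was 176.5. The AU-rich pentamer ATTTA, searched on the same strand and contained in none of the stem-loop forms found, was present in 7 of these 8 replacement UTRs. Among the replication-dependent genes it was present in 17 of 51, or in 17 of the 40 with at least 30 annotated bases. Over all protein-coding genes with a 3′ UTR it was present in 66.1%. Mouse H1f0, with a UTR of 1198 bases, held none. Of the 67 mouse replication-dependent genes, 54 lie in the cluster on chromosome 13, between 21715763 and 23934851, and 10 on chromosome 3.

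Near-identical copies limit what a single histone gene's value means. Among the mouse genes, 32 of 83 had over 50% of the 50-base windows of their longest transcript present in a transcript of another gene, and all 32 were replication-dependent. Hist2h3c1 shared 100% of its windows and was listed at 0 in every liver, whereas Hist2h2aa2 also shared 100% and had a mean of 6.05 TPM. The 8 mouse genes at 0 in every liver shared a median of 5.19% of their windows, against 43.2% over all 83. How reads matching several genes were counted is not given in the sources used here, so values of such genes are uncertain. No human sequence was used here, and the same check was not made for the human genes.

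Reads assigned to genes, recovered from the steps of the TPM values, ranged from 2670469 to 20302454 per humanized liver and from 12960373 to 44668272 per WT liver, except for WT LacZ replicate 2 with 1423985. In that library 38 of the 59 histone genes tested rested on fewer than 10 reads. It and WT HuR KD replicate 6 stood apart from the other WT livers in several histone genes, so WT results are also given without both. In the humanized table the mitochondrial ribosomal RNAs took 27.2% to 49.1% of TPM, most in HuR KD replicate 4 and LacZ replicate 2, and nuclear protein-coding genes 26.7% to 35.6%, against 75.6% to 77.6% in the WT table. The 12 human hepatocyte markers were all at 1 TPM or more in the humanized livers, and of 11 human macrophage markers 6 were at 0 in every liver and the summed level was at most 1.24 TPM. Fewer cells of a type and less RNA per cell cannot be told apart in these bulk samples.

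HuR mRNA was lower in every knockdown liver. ELAVL1 read 2.37 to 4.05 TPM (median 3.72) in the humanized HuR KD livers against 4.77 to 6.17 TPM (median 5.87) in the LacZ livers, 61.0% of the control mean (exact permutation p = 0.0286, two-sided, the smallest possible with these groups). Elavl1 read 3.72 to 5.62 TPM (median 4.97) in the WT HuR KD livers against 8.58 to 10.7 TPM (median 9.49), or 51.7% (exact permutation p = 0.00216, again the smallest possible).

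Histone mRNAs were abundant in both tables. A mean of at least 10 TPM was reached by 38 of 71 human and 14 of 67 mouse replication-dependent genes. In the humanized livers 54 of 71 replication-dependent and 11 of 19 replacement genes reached a mean of 1 TPM, and 9 and 7 were at 0 in every liver. The linker histone genes HIST1H1C and HIST1H1E led the human list at 281 and 169 TPM on average, followed by the H4 gene HIST1H4C (163 TPM) and the H2B gene HIST1H2BK (126 TPM). These 4 genes made up 35.4% ± 4.1 (SD, n = 4) of the summed replication-dependent TPM in the HuR KD livers and 39.5% ± 5.0 (n = 4) in the LacZ livers. In the WT livers 51 of 67 replication-dependent and 8 of 16 replacement genes reached a mean of 1 TPM, and Hist1h4h (144 TPM), Hist1h1c (127 TPM), Hist1h2bc (123 TPM) and Hist1h4d (62.3 TPM) carried 52.3% ± 3.7 (n = 6) of the replication-dependent TPM under LacZ. By type, H1 took the largest share of the human replication-dependent TPM (28.3% ± 3.7 under LacZ), and H4 that of the mouse (37.6% ± 2.7).

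Among the replacement histones the linker gene H1F0, which encodes the H1 of cells that have stopped dividing, had the highest mean, at 94.4 TPM in the humanized and 131 TPM in the WT livers. The H3.3 gene H3F3B came next at 44.9 TPM in the humanized livers, level with the H2A.Z gene H2AFZ (44.8 TPM), and mouse H3f3b reached 131 TPM, level with H1f0. H1FX, a further linker histone, stood at 36.5 TPM in the human cells, while mouse H1fx had a mean of 0.289 TPM and was not tested. The genes nearest the filter of a mean of 1 TPM were HIST1H3G (0.777) and HIST1H3F (1.06) in the humanized livers, and Hist1h2bk (0.934) and Hist1h2af (1.04) in the WT livers.

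The summed level of the replacement histones was higher in every humanized HuR KD liver than in every LacZ liver, while that of the replication-dependent histones was not. The sum over the 19 replacement genes was 340, 306, 419 and 301 TPM in HuR KD replicates 1 to 4, and 263, 229, 275 and 279 TPM in LacZ replicates 1 to 4. The groups did not overlap, with a log2 ratio of the means of 0.38. Rescaled to 1000000 over the nuclear protein-coding genes, which leaves out the mitochondrial RNAs, it was 1097 to 1323 against 784 to 897. Linker genes carried most of the gap, with 130 to 207 TPM against 87.8 to 112 TPM, whereas H3 replacement genes overlapped, at 59.1 to 82.3 TPM against 61.5 to 72.4 TPM. The 71 replication-dependent genes summed to 2177, 1587, 2258 and 1944 TPM in the HuR KD livers and 2161, 1398, 1931 and 2534 TPM in the LacZ livers. These overlapped, the HuR KD values lying within the range of the LacZ values, and the log2 ratio of the means was -0.01. On the rescaled values the HuR KD livers reached higher than the LacZ livers (5860 to 7387 against 5243 to 7118), with a log2 ratio of 0.10. No test was made of these sums.

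**Figure D1:**
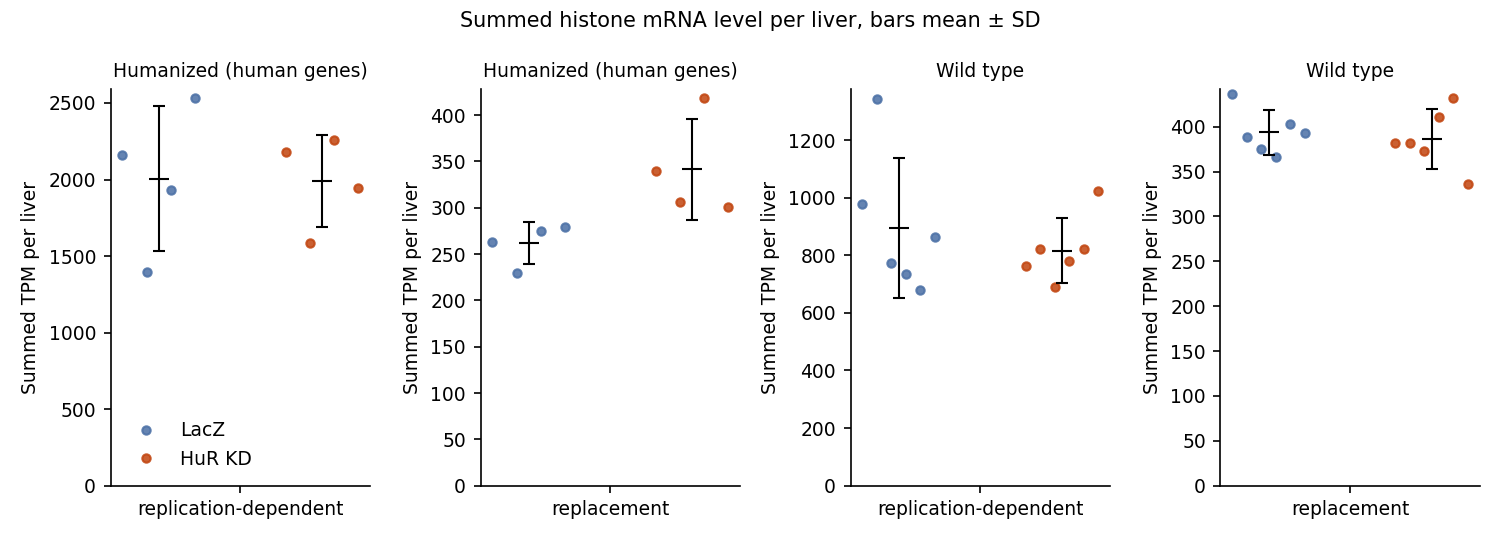
Summed TPM of the replication-dependent and replacement histone genes in each liver (points), for the humanized (4 and 4) and WT (6 and 6) livers, with LacZ in blue, HuR KD in orange and bars for mean ± SD; each panel has its own axis from 0. The humanized replacement sums of the HuR KD livers (301 to 419 TPM) lie above those of the LacZ livers (229 to 279 TPM), and the other panels overlap.

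In the test of single genes (limma on log2(TPM + 1)), 5 of 65 human histone genes were called at an unadjusted p under 0.05, the study's threshold, or 7.69%, where 11.5% of all 12738 genes tested were called. After Benjamini-Hochberg adjustment 0 of the 65 passed, against 0.212% of all genes. The share of histone genes called was below that of all genes in the values as deposited and above it in 7 of 17 alternatives. With median-of-ratios factors 16.9% were called against 13.1% of all genes, with protein-coding scaling 15.4% against 12.2%, with quantile normalization 13.8% against 12.9%, with voom on recovered reads 13.8% against 10.7% and with a replicate block 13.8% against 11%. Without LacZ replicate 4 it was 15.4% against 9.26%, and without LacZ replicate 2 15.4% against 15.3%. By direction, 3 were higher with HuR KD (background 3.6%) and 2 lower (background 7.87%). Without regard to the test, 44 of the 65 fold changes were above 0, where 42.7% of all genes were, and 21 were below 0 (57.3% of all genes). The median log2 fold change was 0.15 for the histone genes and -0.05 for all genes. Median-of-ratios factors moved both, to 0.23 and 0.01. In the values as deposited it was 0.14 for the replication-dependent (35 of 54 above 0) and 0.22 for the replacement genes (9 of 11). On this scale the positive median of the replication-dependent genes rested on LacZ replicate 2, without which it was -0.05 with 21 of 54 above 0, while that of the replacement genes stayed above 0 at 0.13. With all livers the replication-dependent median was 0.22 with median-of-ratios factors, 0.24 with protein-coding scaling and 0.35 with voom. The medians of all genes in these fits were 0.01, 0.02 and 0.005. Livers were left out in the values as deposited only.

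H1FX and H1F0 had the smallest p-values of the human histone genes, and both were higher in all 4 HuR KD livers than in any LacZ liver. H1FX read 49.1, 37.7, 59.1 and 43.3 TPM under HuR KD and 21.2, 28.8, 28.2 and 24.7 TPM under LacZ, a log2 fold change of 0.84 ± 0.17 (SE, limma p = 0.000718, adjusted p = 0.0936, exact permutation p = 0.0286) on 61 to 728 reads per liver. Its call held in 17 of 17 alternative analyses, with an adjusted p between 0.0383 and 0.274. H1F0 read 121, 103, 148 and 87.0 TPM under HuR KD and 78.4, 58.9, 83.9 and 75.1 TPM under LacZ, a log2 fold change of 0.61 ± 0.19 (limma p = 0.0101, adjusted p = 0.256, exact permutation p = 0.0286) on 287 to 2263 reads. It was called in 17 of 17 alternatives and after adjustment in 0 of them (adjusted p 0.088 to 0.552). Mouse H1f0 was not called, at 75.9 to 151 TPM (median 133) under HuR KD and 123 to 148 TPM (median 139) under LacZ, with a log2 fold change of -0.15 ± 0.14 (limma adjusted p = 0.655). Its lowest value was that of replicate 6.

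The other replacement genes of the human table were not called. H3F3B read 41.8, 43.4, 60.0 and 49.6 TPM under HuR KD and 41.4, 42.7, 40.3 and 40.3 TPM under LacZ, with 3 knockdown livers above all controls (log2 fold change 0.22 ± 0.14, limma adjusted p = 0.6, exact permutation p = 0.0571). H2AFZ, which encodes the variant H2A.Z found at promoters, read 52.0, 48.0, 52.1 and 43.7 TPM against 46.3, 30.3, 42.7 and 43.5 TPM (0.27 ± 0.16, limma adjusted p = 0.554, exact permutation p = 0.0571). Both passed the unadjusted threshold with median-of-ratios factors (0.30 and 0.35). H2AFV, a second H2A.Z gene, differed by 0.10 ± 0.17, H2AFJ by 0.15 ± 0.25, the macroH2A gene H2AFY by 0.29 ± 0.15 and H3F3A, the second H3.3 gene, by -0.24 ± 0.16 on the log2 scale, and each of these groups overlapped.

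Of the 54 human replication-dependent genes tested, 1 was called higher and 2 lower. This split depended on single control livers and on the scaling. Without LacZ replicate 4 it was 8 higher and 0 lower, without LacZ replicate 2 it was 1 higher and 6 lower, with voom 5 and 0, and with median-of-ratios factors 5 and 2. The H2A gene HIST1H2AJ read 38.1, 35.1, 46.3 and 35.4 TPM under HuR KD and 32.6, 15.5, 30.03 and 26.9 TPM under LacZ, so that the groups did not overlap (log2 fold change 0.58 ± 0.23, limma p = 0.0284, adjusted p = 0.363, exact permutation p = 0.0286). It was not called without HuR KD replicate 1 or without replicate 3, and the lowest fold change over the alternatives was 0.36. Groups that did not overlap were found for 3 of 65 histone genes, where 7.16% of all genes had them. All 3 had HuR KD above (background 2.13%) and 0 below (background 5.03%). HIST1H4C, the most abundant H4 gene, read 139, 89.1, 162 and 148 TPM against 234, 139, 180 and 216 TPM, with 2 of 4 knockdown livers below all controls (-0.52 ± 0.23, limma p = 0.0474, adjusted p = 0.426, exact permutation p = 0.0857), and was called in 7 of 17 alternatives. HIST1H3E, at 2.87, 1.45, 1.93 and 1.18 TPM against 2.98, 2.04, 5.95 and 4.81 TPM, differed by -0.75 ± 0.30 (limma p = 0.0304, adjusted p = 0.371, exact permutation p = 0.0571) on 8 to 60 reads per liver, and was called in 10 of 16 alternatives. The remaining abundant genes overlapped: HIST1H1C read 252 to 355 TPM under HuR KD and 229 to 304 TPM under LacZ (0.15 ± 0.15), HIST1H1E 116 to 246 and 165 to 194 TPM (-0.19 ± 0.22), and HIST1H2BK 77.6 to 146 and 106 to 190 TPM (-0.35 ± 0.24). HIST1H1E had 3 of 4 knockdown livers below all controls and replicate 4 above them, and HIST1H2BK had 2 of 4 below. Without HuR KD replicate 4, HIST1H1E passed the unadjusted threshold as lower (-0.41). Also not called were human genes with the symbol of a gene named in the WT livers, among them HIST1H3H (0.37 ± 0.27), HIST1H2BL (0.42 ± 0.33), HIST1H2BM (0.22 ± 0.45), HIST1H2BC (-0.33 ± 0.26), HIST1H4D (-0.05 ± 0.42, above 0 with each of the other scalings tried) and HIST1H4H (0.02 ± 0.25). They were matched by symbol alone, and whether genes of one symbol correspond between the species was not checked.

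**Figure D2:**
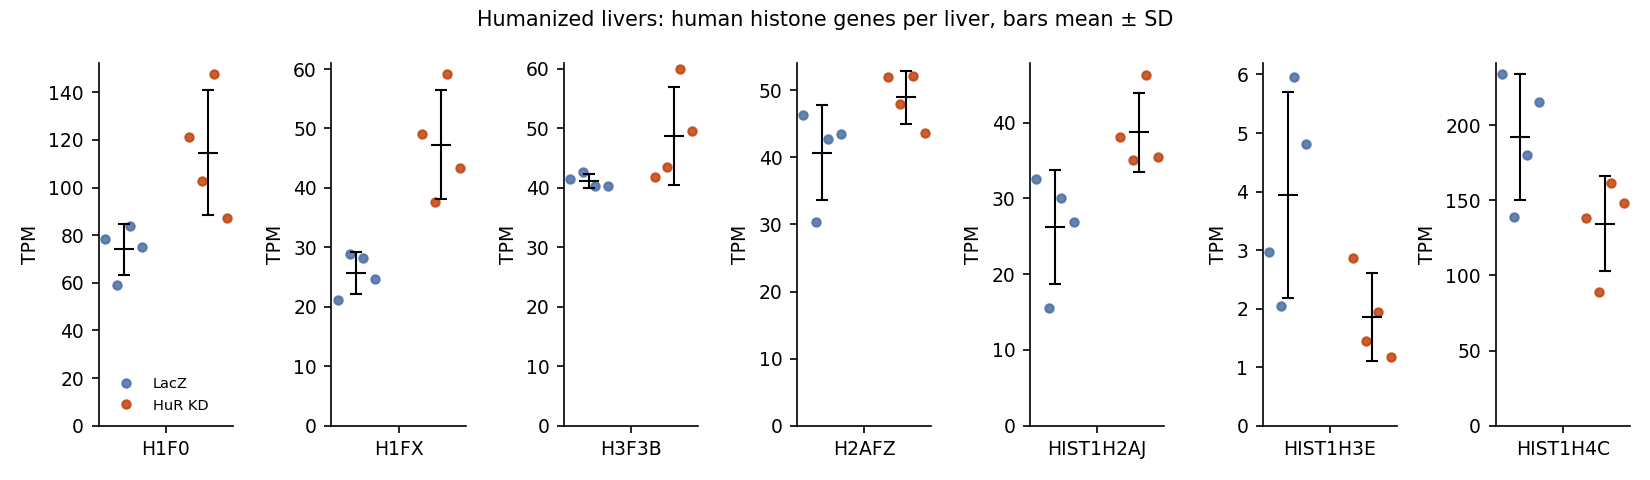
TPM of 7 human histone genes in each humanized liver (points; LacZ blue, HuR KD orange; bars mean ± SD, 4 livers per group), each on its own axis from 0. H1F0, H1FX and HIST1H2AJ show HuR KD above LacZ without overlap, H3F3B and H2AFZ overlap, and HIST1H3E and HIST1H4C are lower on average with overlapping groups.

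**Figure D3:**
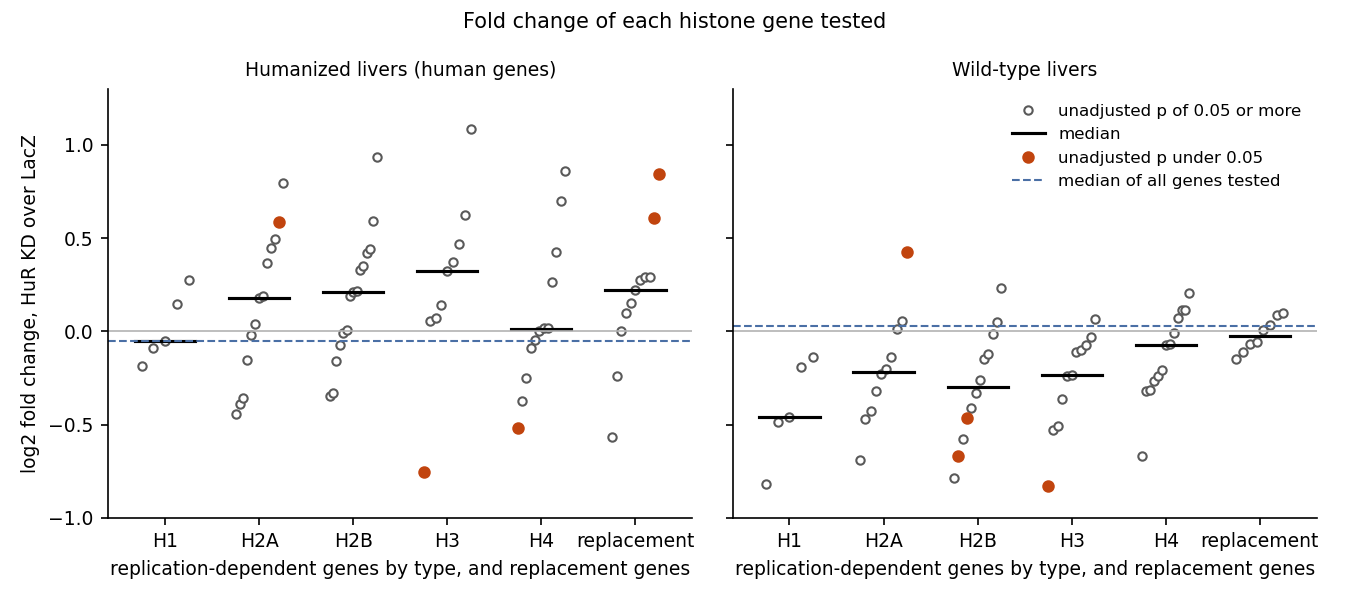
Log2 fold change of each histone gene tested, HuR KD over LacZ, by histone type for the replication-dependent genes and as one column for the replacement genes; filled points are genes with an unadjusted p under 0.05, black bars the median of a column and the dashed line the median of all genes tested. In the humanized livers most columns lie above the dashed line (replacement median 0.22), and in the WT livers the replication-dependent columns lie below it (all 51 genes, median -0.23).

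In the WT livers most replication-dependent histone genes had fold changes below 0 with HuR KD, whereas their summed levels overlapped between the groups. The summed replication-dependent TPM was 688 to 1025 (median 801) under HuR KD and 680 to 1343 (median 818) under LacZ. The highest value of each group came from HuR KD replicate 6 and LacZ replicate 2, and the groups overlapped. Replacement sums were 336 to 432 TPM (median 382) and 366 to 437 TPM (median 391). The log2 ratio of the means was -0.13 for the replication-dependent genes, -0.06 without both livers that stood apart, and 0.02 without LacZ replicate 2 alone. It was -0.03 for the replacement genes.

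By gene, 4 of 59 mouse histone genes were called, or 6.78%, against 16% of all 15090 genes tested, 1 of them higher (background 9.09%) and 3 lower (background 6.94%). After adjustment 0 of the 59 passed, against 0.888% of all genes. The share of histone genes called was below that of all genes here and in all 22 alternatives. The median log2 fold change was -0.23 over the 51 replication-dependent genes, with 41 below 0 and 10 above, and -0.02 over the 8 replacement genes, with 4 below 0. Over all genes it was 0.03, with 43.2% below 0 and 56.8% above. The median was below 0 in each type, at -0.46 for the 5 H1 genes, -0.22 for H2A, -0.30 for H2B, -0.23 for H3 and -0.07 for H4. Without HuR KD replicate 6 and LacZ replicate 2, which were left out together after seeing the data, the median of the replication-dependent genes was -0.09, with 37 of 51 below 0, and 5 histone genes were called (8.47%, against 23.2% of all genes in that fit). No mouse histone gene had groups without overlap (0 of 59, where 2.49% of all genes had, 1.25% with HuR KD above and 1.23% below).

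Hist1h3h, an H3 gene at chr13:21717659-21718069 (plus strand), had the smallest p. It read 1.81 to 3.04 TPM (median 2.08) under HuR KD and 2.87 to 8.25 TPM (median 4.37) under LacZ, and 5 of 6 knockdown livers lay below all controls. The log2 fold change was -0.83 ± 0.21 (limma p = 0.00161, adjusted p = 0.0781, exact permutation p = 0.00433), and it was called in 21 of 21 alternatives. After adjustment it passed in 1 of them, without LacZ replicate 5 (limma adjusted p = 0.048). The gene rested on 2 to 44 reads per liver, the highest TPM, 8.25 in LacZ replicate 2, on 2 reads, and 93.9% of its 50-base windows occur in other genes. Without LacZ replicate 2 the log2 fold change was -0.69 and the gene was still called.

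The H2B gene Hist1h2bl, at chr13:21715763-21716143 (minus strand), lies near Hist1h3h, with Hist1h2ai between them, and was called lower too. It read 0.986 to 1.90 TPM (median 1.49) under HuR KD and 1.73 to 5.01 TPM (median 2.81) under LacZ, with 4 of 6 knockdown livers below all controls (-0.67 ± 0.20, limma p = 0.00614, adjusted p = 0.134, exact permutation p = 0.0108). It too was called in 21 of 21 alternatives, on 1 to 27 reads per liver, with 82.8% of its windows shared. Hist1h2bm, an H2B gene with the stem-loop printed above, read 2.32 to 4.63 TPM (median 3.07) against 3.28 to 7.29 TPM (median 4.59), with overlapping groups (-0.47 ± 0.19, limma p = 0.0317, adjusted p = 0.258, exact permutation p = 0.0541). It was called in 14 of 21 alternatives, and not with voom or without HuR KD replicate 3, 4 or 5 or LacZ replicate 1 or 2, each alone, or without both livers that stood apart. The H2A gene Hist1h2af was the single one called higher, at 1.02 to 1.88 TPM against 0 to 1.16 TPM (0.43 ± 0.19, limma p = 0.0437, adjusted p = 0.296, exact permutation p = 0.013), on 0 to 7 reads per liver. Its value of 0 was that of LacZ replicate 2, a library in which 0 reads allow up to 12.7 TPM of this gene (the worth of 3 reads), and without it the gene was not called (0.27). All 4 genes lie on chromosome 13, as do 54 of the 67 mouse replication-dependent genes. Hist1h2ai, between Hist1h3h and Hist1h2bl, was not called (-0.47 ± 0.27).

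**Figure D4:**
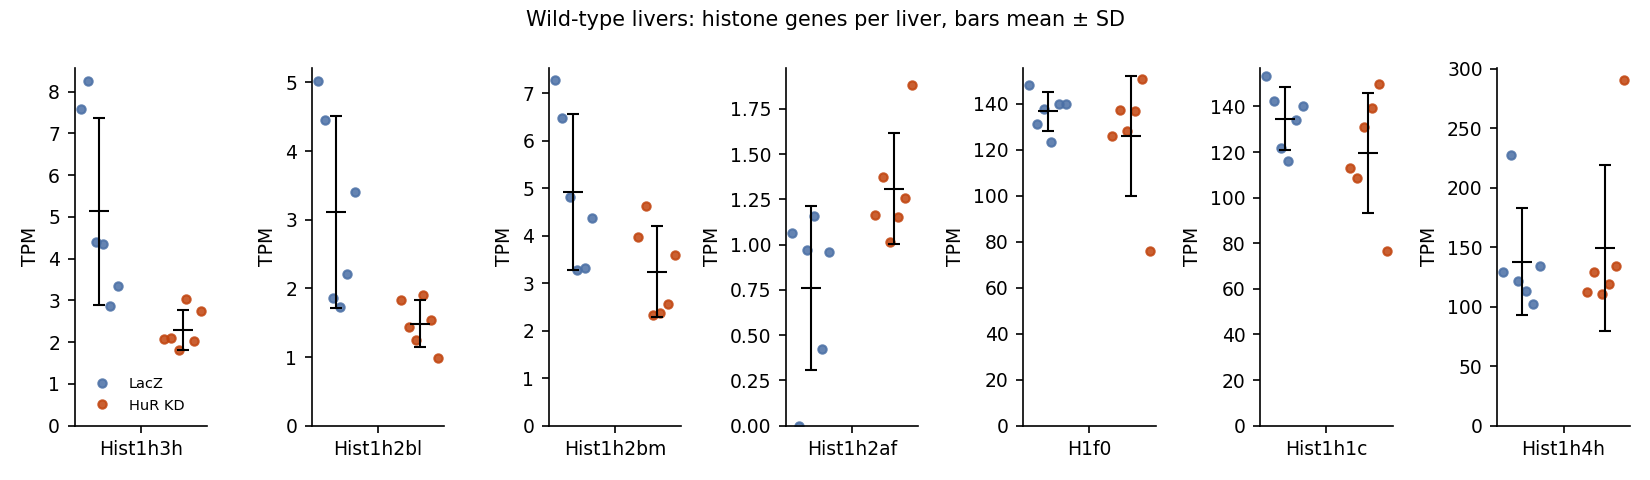
TPM of 7 histone genes in each WT liver (points; LacZ blue, HuR KD orange; bars mean ± SD, 6 livers per group), each on its own axis from 0. Hist1h3h and Hist1h2bl are lower with HuR KD apart from a small overlap, Hist1h2bm and Hist1h2af overlap more, and H1f0, Hist1h1c and Hist1h4h each hold a HuR KD liver, replicate 6, far from the rest (75.9, 76.5 and 291 TPM).

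The abundant mouse genes were not called in the fit over all livers. Hist1h1c read 76.5 to 150 TPM (median 122) under HuR KD and 116 to 153 TPM (median 137) under LacZ (-0.19 ± 0.14), and Hist1h1e 35.1 to 73.8 and 54.6 to 73.7 TPM (-0.14 ± 0.16). Hist1h2bc, whose annotated UTR did not hold the stem-loop letters, read 106 to 133 and 106 to 151 TPM (-0.12 ± 0.10). The H4 genes Hist1h4h and Hist1h4d had log2 fold changes of 0.07 ± 0.24 and 0.12 ± 0.25, each with its highest values in the same pair of livers, and Hist1h4c 0.21 ± 0.17. Hist1h4c passed the unadjusted threshold, as higher, in 3 of 22 alternatives, without LacZ replicate 2 (0.35), without both livers that stood apart and with voom. Hist1h3e differed by -0.07 ± 0.23. Without HuR KD replicate 6 the log2 fold change of Hist1h4h was -0.14, and without both livers 0.01.

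Mouse replacement genes differed little between the groups. H3f3b read 113 to 152 TPM (median 131) under HuR KD and 116 to 149 TPM (median 124) under LacZ (log2 fold change 0.03 ± 0.09). H3f3a differed by 0.01 ± 0.12, H2afv by 0.10 ± 0.13, H2afz by -0.07 ± 0.08 and H2afj by -0.11 ± 0.16. H2afy, the macroH2A gene, read 21.7 to 25.8 TPM (median 24.6) against 21.5 to 27.9 TPM (median 21.9), with 0.09 ± 0.07. Without both livers that stood apart, H2afy (0.13) and H2afj (-0.16) passed the unadjusted threshold.

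The genes that make and carry histone mRNAs and histone proteins were examined as 3 lists. The histone mRNA processing list holds the stem-loop, cleavage and decay factors, and 1 of 22 human genes tested was called higher and 1 lower, with 4 of 24 mouse genes higher and 0 lower. Over all genes 3.6% were called higher and 7.87% lower in the humanized table, and 9.09% and 6.94% in the WT table, and the counts of all 3 lists are set beside these shares. SLBP read 20.8, 23.7, 28.2 and 27.4 TPM under HuR KD and 19.5, 24.2, 31.6 and 30.9 TPM under LacZ (-0.07 ± 0.18), and mouse Slbp 5.53 to 7.51 TPM (median 6.95) against 5.30 to 7.27 TPM (median 5.79, log2 fold change 0.14 ± 0.09). NPAT, the activator of histone gene transcription, differed by -0.35 ± 0.18 (limma adjusted p = 0.502) in the human cells and by 0.07 ± 0.08 in the mouse livers. The human genes with the smallest p were TUT7, which adds uridines to histone mRNAs before their decay (-0.60 ± 0.19, limma p = 0.0105, adjusted p = 0.261, exact permutation p = 0.0571), and MIF4GD, a partner of SLBP in translation (0.46 ± 0.16, limma p = 0.0193, adjusted p = 0.318, exact permutation p = 0.0286). In the WT livers they were Cstf1 (0.32 ± 0.09, limma adjusted p = 0.0992, exact permutation p = 0.00433) and Cpsf3, the endonuclease of 3′ end cleavage (0.18 ± 0.06, limma adjusted p = 0.181, exact permutation p = 0.00866).

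Of 21 human histone chaperone genes tested 4 were called lower (background 7.87%) and 0 higher (background 3.6%). SUPT16H, a subunit of the FACT complex that moves H2A-H2B dimers, read 5.02 ± 0.91 TPM (SD, n = 4) against 12.4 ± 2.1 (n = 4), a log2 fold change of -1.15 ± 0.17 with a limma adjusted p of 0.0455, under 0.05 in 7 of 17 alternatives (range 0.0209 to 0.182), and ANP32E, which removes H2A.Z from chromatin, read 3.58 ± 1.17 against 8.25 ± 1.12 TPM (-1.05 ± 0.22, limma adjusted p = 0.0936). The HuR KD livers lay below all LacZ livers for both genes. Of 24 mouse chaperone genes 5 were called higher (background 9.09%) and 0 lower (background 6.94%), led by Ssrp1, the partner of Supt16 in FACT (0.21 ± 0.06, limma adjusted p = 0.114, exact permutation p = 0.00866), and Ep400 (0.20 ± 0.07, limma adjusted p = 0.191, exact permutation p = 0.00866). Mouse Supt16 itself differed by 0.07 ± 0.09. The median log2 fold changes of the lists were -0.07 and 0.11, beside -0.05 and 0.03 over all genes.

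Genes of DNA replication and proliferation, the setting in which replication-dependent histones are made, included 1 of 38 human genes called higher (background 3.6%) and 0 lower, and 5 of 31 mouse genes higher (background 9.09%) and 0 lower. RRM2, the ribonucleotide reductase subunit that supplies deoxynucleotides, was the human gene with the smallest p (8.14 ± 1.08 against 4.17 ± 1.42 TPM, SD, n = 4 each, log2 fold change 0.86 ± 0.23, limma adjusted p = 0.172, exact permutation p = 0.0286), and MCM6, of the replicative helicase, was next without being called (-0.44 ± 0.26). In the WT livers Mcm7 (0.26 ± 0.09, limma adjusted p = 0.158, exact permutation p = 0.013) and Rrm2 (0.51 ± 0.17, limma adjusted p = 0.169, exact permutation p = 0.0325) led. The proliferation marker MKI67 read 4.09, 3.02, 4.69 and 3.26 TPM against 4.44, 1.62, 2.76 and 4.87 TPM in the humanized livers (0.16 ± 0.27), and Mki67 1.01 to 4.89 TPM (median 2.68) against 2.20 to 6.08 TPM (median 3.42) in the WT livers (-0.26 ± 0.26). TOP2A and Top2a differed by 0.15 ± 0.29 and -0.02 ± 0.23.

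Among the humanized livers, in TPM as deposited, the summed replication-dependent histone level and that of the 40 replication genes had the same livers at their ends. LacZ replicate 2 was lowest in both (1398 and 178 TPM), HuR KD replicate 2 next (1587 and 290 TPM), and LacZ replicate 4 highest in both (2534 and 405 TPM). Both sums come from the same libraries and total, and in TPM as deposited the HuR KD livers lay within the range of the LacZ livers in both. The TPM share of nuclear protein-coding genes was also lowest in LacZ replicate 2 (26.7%), next in HuR KD replicate 2 (27.1%) and highest in LacZ replicate 4 (35.6%). Rescaled to those genes, the histone sum stayed lowest in LacZ replicate 2 (5243). It was then highest in HuR KD replicate 1 (7387), above LacZ replicate 4 (7118). The replication sums were not rescaled. In the WT livers the replication sums lay between 159 and 234 TPM. LacZ replicate 2 and HuR KD replicate 6, with the highest histone sums (1343 and 1025 TPM), had replication sums of 212 and 159 TPM.

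**Figure D5:**
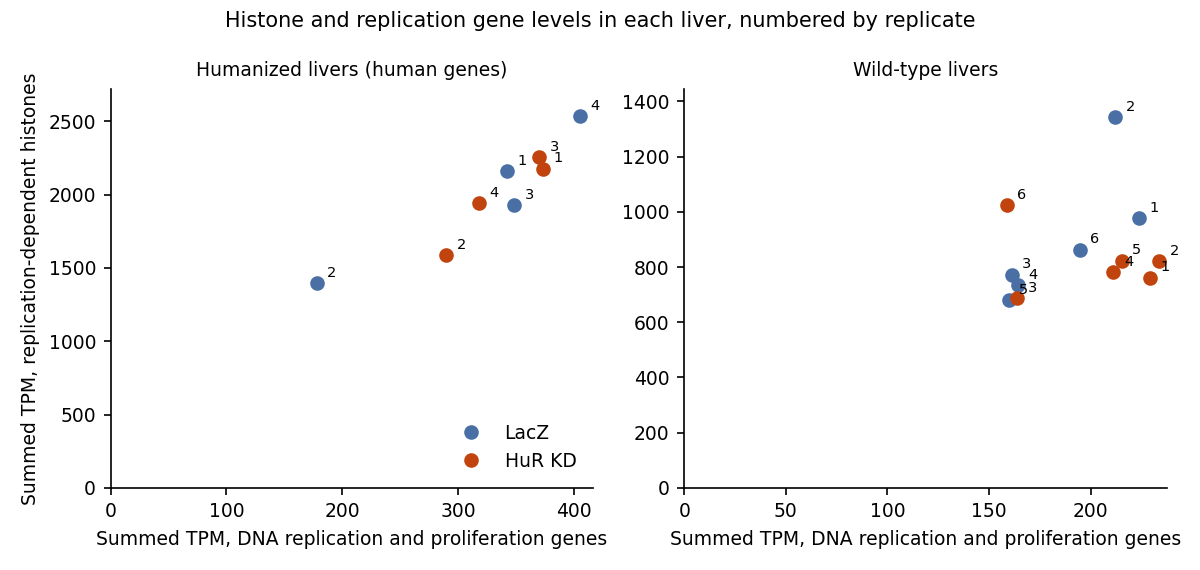
Summed TPM of the replication-dependent histone genes (vertical axis) against that of the DNA replication and proliferation genes (horizontal axis) in each liver, numbered by replicate, LacZ blue and HuR KD orange. In these values as deposited, not rescaled, LacZ replicate 2 lies lowest (178 and 1398 TPM) and LacZ replicate 4 highest (405 and 2534 TPM) among the humanized livers. In the WT livers LacZ replicate 2 and HuR KD replicate 6 lie above the rest.

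Markers of other liver cells were examined in the WT mice, and after adjustment 0 of them passed in any list. Over all genes tested in these livers, 9.09% were called higher and 6.94% lower at the unadjusted threshold used for the counts below. Of 11 macrophage markers tested 6 were called lower and 0 higher, and the summed level of the 12 markers was 569 to 1022 TPM under HuR KD against 775 to 1071 TPM under LacZ, with none of them at 0. Of 9 lymphocyte markers tested 2 were lower and 0 higher, at summed levels of 21.4 to 34.3 and 24.3 to 45.1 TPM. Of 13 endothelial and stellate markers 1 was higher and 1 lower, and of 14 hepatocyte markers 0 and 1. The part of these cells in the fold changes of the replication-dependent histones was not tested.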

How the data were processed

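Total RNA of 20 livers was prepared with a strand-specific kit and sequenced as paired reads of 75 bases (humanized) or 50 bases (WT). The authors trimmed with cutadapt 2.8, aligned with HISAT2 (GENCODE 32 and M23; builds GRCh38 and mm10 per the labels; both genomes together for the humanized livers), counted with featureCounts (subread 2.0) and deposited TPM, each library adding up to 1000000 in its table. Each table was fitted alone with limma 3.58.1 in R 4.3.3 (lmFit, eBayes with a trend) on log2(TPM + 1), for genes with a mean of at least 1 TPM, calling genes at an unadjusted p under 0.05. The p-values adjusted by Benjamini-Hochberg are over all genes tested. Adding 1 to the TPM makes the log2 fold changes of genes at few TPM smaller in size than the ratio of their TPM. The test was first checked on simulated data. Of genes given a log2 shift of 1, 82.5% were called in the humanized and 97.5% in the WT simulation. After adjustment 38.5% and 82% of them passed, so a shift of this size often fails adjustment in the humanized set. Of unshifted genes 4.94% and 4.98% were called. HuR and single genes were also compared by two-sided exact permutation over livers. Reads were recovered as whole numbers that fit a gene's TPM in at least 4 livers (18702 and 25110 genes, 100% of those with enough values), with Python 3.11.15 and numpy 2.4.6. Named are HuR, the 4 replication-dependent and 6 replacement genes with the highest mean TPM in each set, every histone gene called or among the 3 with the smallest p, their namesakes in the other set, the 2 genes with the smallest p in each list, SLBP, NPAT, MKI67 and TOP2A. Alternatives covered the pseudocount, filter, scaling, trend, voom on recovered reads, a replicate block and each liver left out. The histone genes, lists and tests were chosen with earlier results of these data known. Counting on recovered reads gives errors for counting alone. The labels give groups the same replicate numbers, but a pairing of livers by number was not shown, so the fit has no block.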

Additional observations from a re-analysis of the deposited data

Results flagged for a closer look

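In each group the most extreme liver was compared with the rest by Dixon's ratio over the named histone genes, HuR and the 2 class sums. Chance alone gives about 1 flag in 20 groups, and 18 were found in 92. Of these, 7 were WT HuR KD replicate 6 and 7 were WT LacZ replicate 2. WT HuR KD replicate 6 was highest in its group for Hist1h4h (291 TPM, the others 111 to 134), Hist1h4d (109 TPM), Hist1h4c (55.4 TPM), Hist1h3e (37.5 TPM), H2afj (40.5 TPM) and H2afv (36.9 TPM), and lowest for H1f0 (75.9 TPM, the others 126 to 151). WT LacZ replicate 2 was highest in its group for Hist1h4h (227 TPM, the others 103 to 134), Hist1h4d (116 TPM), Hist1h4c (55.8 TPM), Hist1h3e (36.5 TPM), H2afj (37.0 TPM), H2afy (27.9 TPM) and H1fx (1.39 TPM). H1fx rested on only 1 to 8 reads per WT liver. WT HuR KD replicate 6 and WT LacZ replicate 2 had the fewest reads of the WT set, 12960373 and 1423985. The part of depth in their values was not tested. The other 4 flags were WT HuR KD replicate 3 for H2afy (21.7 TPM, lowest) and replicate 2 for H1fx (0.386 TPM, highest), humanized HuR KD replicate 3 for HIST1H2BL (27.4 TPM, the others 11.9 to 13.1) and humanized LacZ replicate 4 for HIST1H2BM (66.0 TPM, the others 14.3 to 22.3).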

How the results depend on the processing

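Of 248 recomputed summary values, 204 stayed close to the value reported (counts within 1.5 times, sums within 1 SD, HuR on the same side of its threshold) and 44 moved. Called on the adjusted p instead of the unadjusted one, 0 histone genes passed in either set, as did 0 genes of the processing and replication lists in both sets, 0 WT chaperones and 1 human chaperone. H1FX passed adjustment with median-of-ratios factors and with quantile normalization, and mouse Hist1h3h without WT LacZ replicate 5. The number of human histone genes called, 5 as reported, was 11 with median-of-ratios factors, 10 with protein-coding scaling, 9 with quantile normalization and 9 with voom on recovered reads (shares of all genes 13.1%, 12.2%, 12.9% and 10.7%). With single livers left out it was 3 (without HuR KD replicate 1) to 10, reached without LacZ replicate 2 (4 higher, 6 lower) and without LacZ replicate 4 (10 higher, 0 lower). In the WT livers it was 4 as reported, 0 among genes with a mean of at least 5 TPM and 3 to 8 with livers left out (8 without LacZ replicate 5). The cause of these moves was not tested. The sign of 3 small class sums was not stable. The log2 ratio of the replication-dependent sum was -0.15 to 0.12 in the humanized livers (0.10 rescaled) and -0.21 to 0.02 in the WT livers (above 0 without LacZ replicate 2), and that of the WT replacement sum -0.06 to 0.0092, with livers left out. The humanized replacement sum stayed above 0 (0.27 to 0.44).

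With a replicate block the counts were 9 human and 7 WT histone genes and 3 WT chaperones. Same-numbered livers correlated by -0.25 to 0.14 in the humanized and -0.14 to 0.21 in the WT set. Humanized replicate 1 and WT replicates 1 and 5 correlated best with their own number, and the other replicates did not. A pairing by number was not shown, and correlations over so few livers cannot exclude one.

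Of the human lists, processing (2 called) gave 1 among genes of at least 5 TPM and 1 to 3 with livers left out, chaperones (4) gave 4 to 5, and replication (1) gave 4 with voom and 1 to 4. Of the WT lists, processing (4) gave 2 with median-of-ratios factors and 3 to 6 with livers left out, chaperones (5) gave 8 with voom and 2 to 8, and replication (5) gave 8 with voom and 3 to 7.

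Single genes that changed sign had fold changes between -0.14 and 0.22 as reported, and none of them was called there. HIST1H4D (-0.05) was 0.030 with median-of-ratios factors, 0.045 with protein-coding scaling, 0.033 with quantile normalization and 0.18 with voom, and -0.37 to 0.22 with livers left out. H3f3a (0.01) was -0.0045 with median-of-ratios factors and -0.048 to 0.12 with livers left out. With livers left out, log2 fold changes ran from -0.19 to 0.13 for HIST1H4H, from -0.022 to 0.34 for H2AFJ, from -0.045 to 0.66 for HIST1H2BM, from -0.14 to 0.22 for Hist1h4h, from -0.048 to 0.32 for Hist1h4d, from -0.0073 to 0.076 for H3f3b, from -0.023 to 0.14 for H2afv, from -0.21 to 0.033 for Hist1h1e and from -0.25 to 0.084 for Hist1h3e. Depth limits the low WT genes most: Hist1h3h, Hist1h2bl, Hist1h2bm and Hist1h2af rested on at most 54 reads in any liver.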

Other observations

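The name rule also matched 34 human and 9 mouse genes that are not protein coding, which the comparisons leave out. The processed pseudogenes H3F3AP4 (11.1 TPM on average over the humanized livers), H3F3AP6 (5.69 TPM) and mouse H3f3c (17.4 TPM) were the highest of them. H3F3AP4 read 10.8 ± 3.7 TPM (SD, n = 4) under HuR KD and 11.4 ± 2.4 (n = 4) under LacZ, and H3f3c 18.7 ± 6.4 (n = 6) and 16.1 ± 3.2 (n = 6). H3f3aos, annotated as a long noncoding RNA, read 2.03 ± 0.42 TPM under HuR KD and 1.37 ± 0.56 under LacZ (limma log2 fold change 0.38, adjusted p = 0.296).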
